A study of Saccharomyces cerevisiae with 18 samples.

Results

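Truncation of the HLB domain of Ioc3 was compared with loss of the whole *IOC3* gene, in cells of *Saccharomyces cerevisiae* that also lacked *YAF9*. The members were chosen by their labels alone: 3 libraries of *ioc3*Δ*cHLB yaf9*Δ (the truncation strain), in which the C-terminal part of the HLB domain is deleted, and 3 libraries of *ioc3*Δ *yaf9*Δ (the deletion strain), in which *IOC3* is deleted, 6 of the 18 libraries of the series. The remaining libraries came from wild type, *ioc3*Δ, *ioc3*Δ*cHLB* and *yaf9*Δ cells, 3 of each. The *yaf9*Δ strain, with full-length *IOC3*, is given as the background level, and the *ioc3*Δ*cHLB* and *ioc3*Δ strains give the same contrast with *YAF9* present. Per the labels, every strain was in the BY4742 background with a FLAG epitope tag and was grown in YPD, a rich glucose medium, as independent biological replicates. Per the study's methods the full-length and truncated forms of *IOC3* were brought in with the tag on a linearized plasmid that carries a kanamycin resistance marker. How the double mutants were made, and whether replicates came from separate transformants, is not given in the sources used here.

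ISW1a, in which the Isw1 ATPase is paired with Ioc3, slides nucleosomes and sets the spacing between them. The HLB (helical linker DNA binding) domain of Ioc3 contacts the DNA that leads out of a nucleosome. Yaf9 is a YEATS domain protein shared by NuA4, which acetylates histones, and by SWR1, which places the histone variant H2A.Z (encoded by *HTZ1*) next to promoters. The comparison addresses how RNA in cells with a truncated Ioc3 differed from that in cells without Ioc3, when Yaf9 was missing.

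The 6 libraries held 5145170 to 8121354 reads. Values are CPM, read counts that the authors scaled to a common effective library size, and differences are log2(CPM + 1) in *ioc3*Δ*cHLB yaf9*Δ minus *ioc3*Δ *yaf9*Δ, with the standard error (SE) from a limma fit over 18 libraries. A gene was called at a Benjamini-Hochberg adjusted p under 0.1 and a difference of at least 1.5-fold, and 5786 genes were tested. A difference on this scale understates that of genes near 0 CPM.

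Library 1 of *ioc3*Δ*cHLB yaf9*Δ stood apart from its replicates. Across genes, libraries 2 and 3 of that strain had a Pearson correlation of 0.996 on log2(CPM + 1), whereas library 1 reached 0.977 and 0.974 with them and 0.986 with library 3 of *ioc3*Δ *yaf9*Δ. Among the *ioc3*Δ *yaf9*Δ libraries the values were 0.994, 0.987 and 0.982. Library 1 of the truncation strain thus resembled a library of the other strain more than its own replicates, and results are given with and without it where it moved them.

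**Figure D1:**
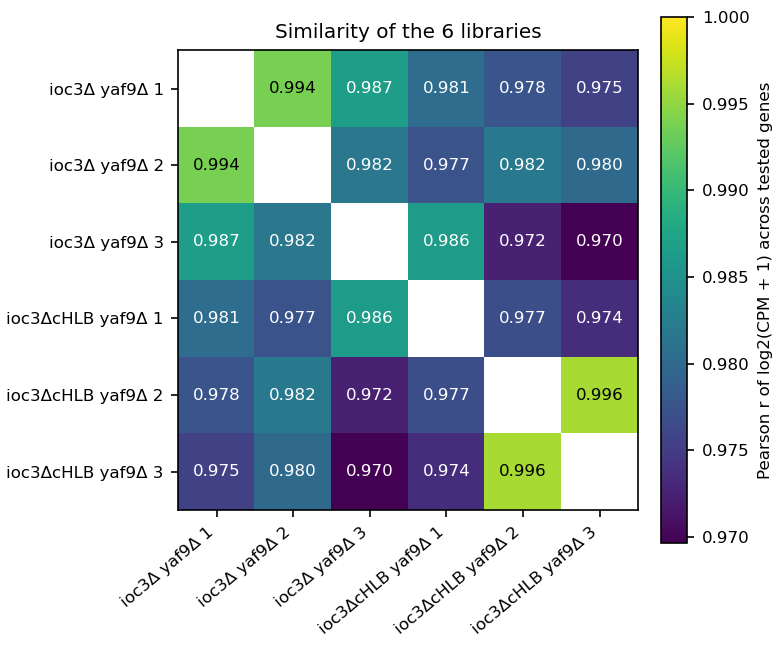
Pearson correlation across genes of log2(CPM + 1) for each pair of the 6 libraries, 3 of *ioc3*Δ *yaf9*Δ and 3 of *ioc3*Δ*cHLB yaf9*Δ. Libraries 2 and 3 of the truncation strain correlated at 0.996, and its library 1 correlated more closely with library 3 of the deletion strain (0.986) than with either of them (0.977 and 0.974).

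*IOC3* (YFR013W, chrVI:169922-172285 in the R64 reference, the sacCer3 build, plus strand) held 205, 235 and 339 reads in libraries 1 to 3 of *ioc3*Δ*cHLB yaf9*Δ and 1, 0 and 0 reads in those of *ioc3*Δ *yaf9*Δ. The ratio of the strains, scaled to library size, was 949.5 (exact 95% interval 169.9 to 37550, counting error only). *IOC3* RNA in the truncation strain was 0.883 times that in *yaf9*Δ (0.806 to 0.968, counting error only), so *IOC3* was transcribed there. This ratio was not corrected for the length removed by the truncation. Reads were counted over the whole gene and do not show whether the deleted part is missing. *YAF9* held 0 reads in all 6 libraries. The reads went with the labelled deletions.

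Most mating-type genes went against the labelled background. BY4742 is a *MAT*α strain with *his3*, *leu2*, *lys2* and *ura3* mutations. In the 6 libraries the a-specific genes *MFA1* and *MFA2* (a-factor) were at 278 to 533 and 634 to 797 CPM, and *STE2* (the α-factor receptor) at 816 to 1054 CPM. The α-specific *MF(ALPHA)1* (α-factor) was at 1.36 to 4.07 CPM and *STE3* (the a-factor receptor) at 0.469 to 4.22 CPM. The least separated members were the α-specific *SAG1* (α-agglutinin), at 24.9 to 37.0 CPM, and the a-specific *ASG7*, at 6.43 to 14.0 CPM; over the whole lists 7 a-specific genes ran from 6.43 to 1054 CPM and 4 α-specific genes from 0.469 to 37.0 CPM. *LYS2* was at 158 to 213 CPM, *URA3* at 119 to 178 CPM, *LEU2* at 42.8 to 81.0 CPM and *HIS3* at 10.1 to 18.5 CPM. Reads thus lay over each of these genes in all 6 libraries, though the labelled background is mutant for them. Which allele or copy the reads came from was not tested. Both strains showed the same pattern, and none of these genes was called between them.

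The strains differed at 278 of 5786 genes (4.8%). RNA of 118 genes was higher in *ioc3*Δ*cHLB yaf9*Δ (2.04%) and of 160 genes lower (2.77%). Among the called genes, the largest fold difference toward higher RNA besides *IOC3* was 4.98, at *HXT7*, and toward lower RNA 8.55, at *PHO84*. The libraries of the strains did not overlap at 256 of the called genes, and they did not overlap at 1278 of all genes tested (22.1%). The 95% interval lay within 1.5-fold in both directions for 3507 genes (60.6%), and 2001 genes (34.6%) were neither called nor bounded in that way.

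The count depended on the library left out. It was 647 without library 1 of *ioc3*Δ*cHLB yaf9*Δ (328 higher, 5.67%, and 319 lower, 5.51%), and 263 of the 278 genes were among them. It was 36 and 56 without libraries 2 and 3 of that strain, and 31, 170 and 323 without libraries 1, 2 and 3 of *ioc3*Δ *yaf9*Δ. The call held in all 6 such fits for 29 genes, 14 higher and 15 lower. The 15 lower genes include the multidrug resistance genes *PDR5*, *PDR15* and *PDR3*, and the 14 higher genes include *IOC3*, the hexose transporter gene *HXT2*, the ATP synthase inhibitor gene *INH1* and the chaperone genes *SSA2*, *AHA1* and *LHS1*.

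Several of the genes that fell most in *ioc3*Δ*cHLB yaf9*Δ relative to *ioc3*Δ *yaf9*Δ belonged to the pleiotropic drug resistance (PDR) network. In this network the zinc cluster activators Pdr1 and Pdr3 bind a short promoter element and drive ABC transporters that pump drugs and lipids across the plasma membrane. Promoter stretches are shown for 6 lower genes that carry that element; *OSI1* and *YGR035C* are not on the list of PDR genes used here and are shown for the element alone. It reads TCCGNGGA and was searched on both strands in the 600 bases before the start codon. Letters are from the R64 reference sequence of RefSeq, 5′ to 3′ on the strand of the gene, and capitals mark the element in either orientation with 15 flanking bases around the outermost sites.
PDR5 (chrXV:619262-619549, plus strand): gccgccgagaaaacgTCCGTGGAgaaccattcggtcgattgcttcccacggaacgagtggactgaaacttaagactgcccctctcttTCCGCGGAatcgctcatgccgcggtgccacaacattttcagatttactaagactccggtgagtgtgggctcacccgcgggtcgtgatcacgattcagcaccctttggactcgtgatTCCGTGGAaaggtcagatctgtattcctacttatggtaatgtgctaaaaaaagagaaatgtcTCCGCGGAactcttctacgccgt
PDR3 (chrII:217231-217301, plus strand): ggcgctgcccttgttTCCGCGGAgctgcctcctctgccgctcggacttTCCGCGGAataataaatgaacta
PDR15 (chrIV:1278816-1278853, plus strand): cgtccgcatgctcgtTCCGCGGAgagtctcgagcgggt
CIS1 (chrXII:822895-822932, minus strand): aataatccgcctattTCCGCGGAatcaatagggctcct
OSI1 (chrXI:304774-304811, plus strand): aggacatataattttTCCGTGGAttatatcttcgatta
YGR035C (chrVII:557716-557855, minus strand): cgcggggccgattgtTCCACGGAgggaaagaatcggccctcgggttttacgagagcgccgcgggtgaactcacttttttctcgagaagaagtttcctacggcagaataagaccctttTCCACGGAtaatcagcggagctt

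*PDR5* holds 4 copies of the element, *PDR3* and *YGR035C* hold 2 each, and *PDR15*, *CIS1* and *OSI1* hold 1 each. The element lies in the 600 bases before 198 of 5610 genes with a promoter in the reference (3.53%), before 15 of 158 called lower genes (9.49%) and before 6 of 116 called higher genes (5.17%). With 250 bases before and 50 after the start the shares were 1.16%, 3.17% and 0.862%. These matches are letters in a window, and no binding was measured here.

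*PDR5* (YOR153W, chrXV:619840-624375, plus strand) encodes the main drug efflux pump of the plasma membrane. It was at 3308, 2313 and 3354 CPM in *ioc3*Δ *yaf9*Δ, at 512, 637 and 628 CPM where the domain was truncated, and at 596 ± 50.4 CPM (SD, n = 3) in *yaf9*Δ. The strains were far apart in every library, and the truncation strain lay at the level of *yaf9*Δ. The difference was -2.32 ± 0.18 (SE, limma adjusted p = 1.01e-06), and it lay between -2.50 and -2.22 with any 1 library left out. *ATG40* (YOR152C, chrXV:617518-618288, minus strand), a receptor for autophagy of the endoplasmic reticulum that is transcribed divergently from *PDR5*, was at 45.0, 32.0 and 45.3 CPM in *ioc3*Δ *yaf9*Δ and at 12.9, 10.1 and 8.87 CPM in the truncation strain (-1.84 ± 0.16, adjusted p = 8.29e-06).

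*PDR15* (YDR406W, chrIV:1279210-1283799, plus strand), which encodes a transporter closely related to Pdr5, was at 104, 70.7 and 81.9 CPM in *ioc3*Δ *yaf9*Δ and at 19.3, 33.5 and 36.1 CPM in the truncation strain. No library of the truncation strain reached the lowest one of the deletion strain, and the difference was -1.53 ± 0.21 (adjusted p = 0.000741). *MRP20* (YDR405W, chrIV:1277646-1278437), the next gene upstream on the same strand and a protein of the mitochondrial ribosome, was at 175, 161 and 116 CPM against 72.2, 63.5 and 75.8 CPM (-1.07 ± 0.15, adjusted p = 0.000745).

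Of the activators, *PDR3* (YBL005W, chrII:217470-220400, plus strand) was at 123, 97.1 and 112 CPM in *ioc3*Δ *yaf9*Δ and at 54.3, 52.9 and 48.9 CPM in the truncation strain, with *yaf9*Δ at 56.5 ± 2.82 CPM. The difference was -1.07 ± 0.14 (adjusted p = 0.000741). *LDB7*, the divergent neighbour of *PDR3* and a subunit of the RSC remodeler, differed by -0.67 ± 0.10 (adjusted p = 0.00238). *PDR1*, the other activator, was at 65.1, 69.0 and 69.7 CPM against 67.6, 63.4 and 67.6 CPM, overlapping throughout (-0.04, adjusted p = 0.842).

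Genes of low abundance, of which *OSI1* is not on the PDR list, went the same way. *RSB1* (YOR049C), a sphingoid base transporter, was at 43.4, 19.7 and 28.2 CPM in *ioc3*Δ *yaf9*Δ and at 2.41, 2.94 and 4.07 CPM in the truncation strain (-2.87 ± 0.32, adjusted p = 0.00013). *CIS1* (YLR346C), a protein of the response to stalled mitochondrial import, was at 17.8, 11.7 and 33.1 CPM against 2.01, 1.96 and 2.33 CPM (-2.70 ± 0.29, adjusted p = 7.32e-05). *OSI1* (YKL071W) was at 30.9, 20.6 and 62.1 CPM against 7.04, 7.19 and 6.98 CPM (-2.12 ± 0.32, adjusted p = 0.00177). None of the 3 overlapped between strains, which was a condition for naming the largest changes, and the spread lay mostly among the deletion libraries.

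*YGR035C*, which has no standard name in the files, was at 132, 84.6 and 90.3 CPM in *ioc3*Δ *yaf9*Δ, at 17.3, 38.4 and 33.8 CPM in the truncation strain, and at 66.1 ± 6.84 CPM in *yaf9*Δ (-1.79 ± 0.23, adjusted p = 0.000461). Its level in the truncation strain was below that in *yaf9*Δ. The network was not lower as a whole: of 25 listed PDR genes 7 were lower and 2 higher, the median difference was -0.03 against -0.00 over all genes tested, and 13 did not overlap (52.0%). The called share was 36% of the list. Over all genes tested 2.77% were lower, 2.04% higher and 22.1% did not overlap. *AZR1*, a transporter for azole drugs, was higher, at 24.5, 40.7 and 39.3 CPM in the truncation strain against 13.6, 17.0 and 8.47 CPM in *ioc3*Δ *yaf9*Δ (1.37 ± 0.31, adjusted p = 0.0355). *AZR1* lost its call without library 1 of *ioc3*Δ *yaf9*Δ (1.42, adjusted p = 0.14) or without library 2 (1.24, 0.17) or 3 (1.27, 0.14) of *ioc3*Δ*cHLB yaf9*Δ. The lower count of the list was 5 or 6 in every fit that left out 1 library, and the higher count was 0, 1 and 4 without libraries 1, 2 and 3 of *ioc3*Δ *yaf9*Δ and 5, 0 and 0 without those of *ioc3*Δ*cHLB yaf9*Δ.

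**Figure D2:**
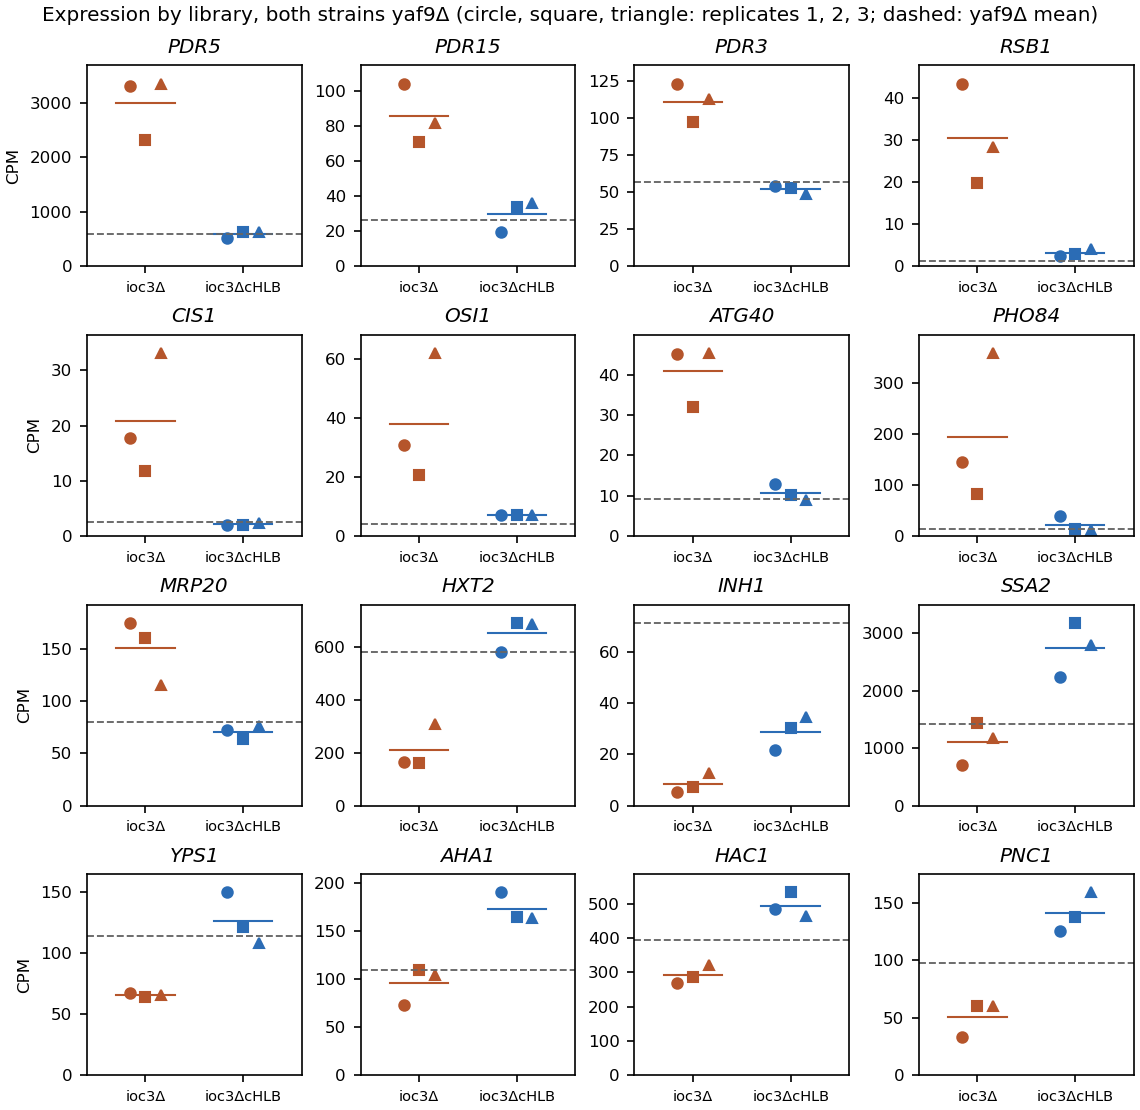
RNA in CPM (linear axis from 0, set per gene) of 16 genes in each library of the deletion strain (*ioc3*Δ *yaf9*Δ) and the truncation strain (*ioc3*Δ*cHLB yaf9*Δ); circle, square and triangle are replicates 1, 2 and 3, the bar is the mean and the dashed line the mean of *yaf9*Δ. *PDR5* lay at 2313 to 3354 CPM in the deletion strain and at 512 to 637 CPM in the truncation strain, on the *yaf9*Δ line.

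*PHO84* (YML123C, chrXIII:24037-25800, minus strand), the high-affinity phosphate transporter, fell most among the called genes. It was at 144, 81.5 and 358 CPM in *ioc3*Δ *yaf9*Δ, at 38.8, 13.7 and 10.8 CPM in the truncation strain and at 13.4 ± 2.89 CPM in *yaf9*Δ. The difference was -3.10 ± 0.46 (adjusted p = 0.00177) and lay between -3.63 and -2.52 with any 1 library left out. The remaining 21 listed phosphate genes were not called, and the median of the list was -0.11. Its promoter is shown because it holds a pair of CACGTG sites, the E-box bound by Pho4, in capitals; the E-box is within 600 bases of the start of 412 of 5610 genes (7.34%).
PHO84 (chrXIII:26194-26251, minus strand): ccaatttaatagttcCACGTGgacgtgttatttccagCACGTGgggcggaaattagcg

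Genes of the mitochondrial ribosome were lower in *ioc3*Δ*cHLB yaf9*Δ as a group. This ribosome makes the few proteins that the mitochondrial genome encodes, and its own proteins are encoded in the nucleus. Of 67 genes, 56 were lower (83.6%, against 2.77% of all genes tested) and 0 higher. The median difference was -0.78, and all 67 were below 0, from -1.19 to -0.35. Their libraries did not overlap at 63 genes (94.0%), against 22.1% of all genes tested.

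The median level of the 67 genes was 7.39, 7.11 and 7.28 on log2(CPM + 1) in the *ioc3*Δ *yaf9*Δ libraries, 6.79, 6.30 and 6.29 in the *ioc3*Δ*cHLB yaf9*Δ libraries and 6.69 to 6.74 in *yaf9*Δ. Library 1 of the truncation strain was the nearest to *yaf9*Δ, and its replicates were below it. Against *yaf9*Δ, the median gene differed by 0.53 in the deletion strain and by -0.26 in the truncation strain, the same *yaf9*Δ libraries entering both. The lower count was 66 without library 1 of *ioc3*Δ*cHLB yaf9*Δ, 1 and 2 without libraries 2 and 3, and 1, 26 and 32 without libraries 1, 2 and 3 of *ioc3*Δ *yaf9*Δ, while the median stayed between -0.92 and -0.68.

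**Figure D3:**
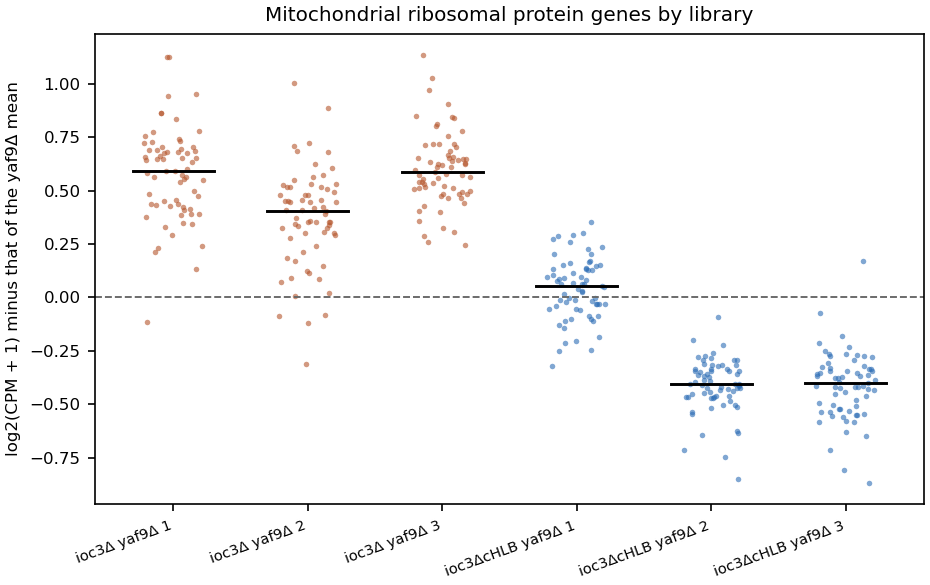
Each of 67 mitochondrial ribosome genes by library, as log2(CPM + 1) minus its mean in *yaf9*Δ; the black bar is the median. The 3 deletion libraries lay above 0 at the median and libraries 2 and 3 of the truncation strain below it.

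Among members with the widest differences, *RSM19* of the small subunit was at 85.9, 72.8 and 98.1 CPM in *ioc3*Δ *yaf9*Δ and at 54.1, 30.6 and 29.8 CPM in the truncation strain (-1.19 ± 0.33, adjusted p = 0.0555), and *MRPL8* of the large subunit differed by a value that held between -1.29 and -0.94. Both were called in the whole set and lost that call without library 1 of *ioc3*Δ *yaf9*Δ or library 2 or 3 of *ioc3*Δ*cHLB yaf9*Δ, at adjusted p between 0.16 and 0.22. Of 41 further genes of mitochondrial translation and RNA, 14 were lower (34.15%, against 2.77% of all genes tested) and 0 higher, with a median of -0.44. That count was 0, 6 and 9 without libraries 1, 2 and 3 of *ioc3*Δ *yaf9*Δ and 20, 0 and 1 without those of *ioc3*Δ*cHLB yaf9*Δ.

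*CYC3*, the heme lyase that attaches heme to cytochrome c, was at 208, 189 and 176 CPM in *ioc3*Δ *yaf9*Δ and at 119, 85.3 and 83.7 CPM in the truncation strain (-1.0 ± 0.14, adjusted p = 0.00129). *CYC1*, cytochrome c itself, was at 584, 539 and 601 CPM against 421, 342 and 294 CPM (-0.72 ± 0.13, adjusted p = 0.0112). Both held in all 6 fits with 1 library left out. *PUT1*, proline oxidase of the mitochondrion, was at 68.9, 52.2 and 85.8 CPM against 33.8, 19.4 and 18 CPM (-1.52 ± 0.32, adjusted p = 0.0238), and lost its call without library 1 of *ioc3*Δ *yaf9*Δ (-1.51, adjusted p = 0.12) or library 2 (-1.42, 0.14) or 3 (-1.36, 0.12) of *ioc3*Δ*cHLB yaf9*Δ.

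Subunits of the respiratory chain went the other way. Of 24 genes, 4 were higher and 1, *CYC1*, was lower (20.8% called, against 4.8% of all genes tested), with a median of 0.36. *INH1*, which inhibits ATP hydrolysis by the mitochondrial ATP synthase, was at 21.5, 30.4 and 34.5 CPM in the truncation strain and at 5.44, 7.35 and 12.9 CPM in *ioc3*Δ *yaf9*Δ, with *yaf9*Δ higher than both at 71.3 ± 7.92 CPM (1.69 ± 0.26, adjusted p = 0.00244). *QCR10* of complex III and *COX4* of complex IV differed by 0.90 ± 0.20 and 0.76 ± 0.20 (adjusted p = 0.034 and 0.0459), and lost their calls without library 1 of *ioc3*Δ *yaf9*Δ or library 2 or 3 of *ioc3*Δ*cHLB yaf9*Δ (adjusted p up to 0.173 and 0.221). The higher count of the list was 9 without library 1 of *ioc3*Δ*cHLB yaf9*Δ, 0 without library 2 or 3, and 0, 3 and 7 without libraries 1, 2 and 3 of *ioc3*Δ *yaf9*Δ. ATP synthase genes differed from *yaf9*Δ by medians of -0.89 in the deletion strain and -0.60 in the truncation strain. Between these strains 2 of 17 were higher in the latter (11.8%, against 2.04% of all genes tested, median 0.29). The count was 5 without library 1 of *ioc3*Δ*cHLB yaf9*Δ, 1 without library 2 or 3, and 1, 1 and 3 without libraries 1, 2 and 3 of *ioc3*Δ *yaf9*Δ.

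Hexose transporter genes held the widest difference toward higher RNA among the called genes besides *IOC3*. *HXT2* (YMR011W, chrXIII:288079-289704, plus strand), a high-affinity glucose transporter, was at 582, 693 and 688 CPM in the truncation strain, at 164, 161 and 308 CPM in *ioc3*Δ *yaf9*Δ and at 584 ± 44.4 CPM in *yaf9*Δ. All 3 truncation libraries lay above all 3 deletion libraries, at the *yaf9*Δ level (1.69 ± 0.28, adjusted p = 0.00373). *HXT4* was at 238, 509 and 602 CPM against 102, 77.7 and 158 CPM (1.95 ± 0.50, adjusted p = 0.0459). *HXT7*, whose near-identical copy *HXT6* can share its reads and makes its value uncertain, was at 23.5, 97.0 and 114 CPM against 12.5, 8.76 and 15.9 CPM (2.32 ± 0.66, adjusted p = 0.0598). *HXT4* and *HXT7* were called in only 2 of the 6 fits that left out 1 library, those without library 1 of *ioc3*Δ*cHLB yaf9*Δ and library 3 of *ioc3*Δ *yaf9*Δ; elsewhere the adjusted p was 0.12 to 0.23. Of 16 listed genes 3 were higher (18.75%, against 2.04% of all genes tested) and 0 lower. The higher count was 1, 1 and 3 without libraries 1, 2 and 3 of *ioc3*Δ *yaf9*Δ and 4, 1 and 1 without those of *ioc3*Δ*cHLB yaf9*Δ.

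Some genes of carbohydrate stores were higher. Of 20 genes of trehalose and glycogen metabolism 5 were higher (25%, against 2.04% of all genes tested) and 0 lower, with a median of 0.60. *GPH1*, glycogen phosphorylase, was at 23.7, 48.2 and 73.6 CPM in the truncation strain and at 6.93, 7.50 and 19.5 CPM in *ioc3*Δ *yaf9*Δ (2.01 ± 0.52, adjusted p = 0.0459). *PGM2*, phosphoglucomutase, was at 23.9, 69.4 and 94.3 CPM against 20.9, 19.7 and 25.5 CPM (1.26 ± 0.37, adjusted p = 0.0633). Library 1 of the truncation strain lay within the deletion range at *PGM2*. Both genes were called only with all libraries, without library 1 of *ioc3*Δ*cHLB yaf9*Δ or without library 3 of *ioc3*Δ *yaf9*Δ (adjusted p up to 0.206 and 0.269 otherwise). The higher count was 14 without library 1 of the truncation strain, with a median of 1.0, 0 without library 2 or 3 of *ioc3*Δ*cHLB yaf9*Δ, and 0, 1 and 4 without libraries 1, 2 and 3 of *ioc3*Δ *yaf9*Δ.

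Heat shock chaperones under Hsf1, the heat shock factor, were higher at 4 of 24 genes (16.7%, against 2.04% of all genes tested) and lower at 0, with a median of 0.55. *SSA2* (YLL024C), a cytosolic Hsp70, was at 2243, 3185 and 2792 CPM in the truncation strain and at 713, 1433 and 1179 CPM in *ioc3*Δ *yaf9*Δ, with *yaf9*Δ at 1426 ± 120 CPM (1.35 ± 0.26, adjusted p = 0.0122). *AHA1*, which activates Hsp90, was at 190, 164 and 163 CPM against 72.7, 109 and 104 CPM (0.87 ± 0.14, adjusted p = 0.00411). In both cases *ioc3*Δ *yaf9*Δ was near *yaf9*Δ or below it, and *ioc3*Δ*cHLB yaf9*Δ above it. *SSA2* shares sequence with *SSA1*, and its value is uncertain to that extent. The higher count was 10 without library 1 of *ioc3*Δ*cHLB yaf9*Δ, 2 and 3 without libraries 2 and 3, and 2, 4 and 5 without libraries 1, 2 and 3 of *ioc3*Δ *yaf9*Δ.

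*GLK1*, glucokinase (YCL040W, chrIII:50838-52340, plus strand), was at 122, 312 and 381 CPM in the truncation strain and at 80.3, 99 and 93.3 CPM in *ioc3*Δ *yaf9*Δ (1.42 ± 0.40, adjusted p = 0.0566). *PNC1* (YGL037C, chrVII:427297-427947, minus strand), nicotinamidase, was at 126, 138 and 159 CPM against 33.2, 60.0 and 60.0 CPM (1.49 ± 0.33, adjusted p = 0.0308). Library 1 of the truncation strain was the lowest of its strain at both, and neither gene overlapped between strains. Both lost their call without library 1 of *ioc3*Δ *yaf9*Δ or library 2 or 3 of *ioc3*Δ*cHLB yaf9*Δ, *GLK1* also without library 2 of *ioc3*Δ *yaf9*Δ, at adjusted p of 0.1 to 0.23.

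The promoters of these genes are shown for the stress response element, AGGGG, which Msn2 and Msn4 bind, in either orientation and in capitals. In the window from 250 bases before to 50 after the start it was in 51 of 116 promoters of higher genes (44.0%), 24 of 158 of lower genes (15.2%) and 1218 of 5610 of all genes (21.7%). With 600 bases before the start the shares were 64.7%, 29.7% and 39.9%. Of 28 listed Msn2/4 genes 3 were called higher (0, 1 and 9 without libraries 1, 2 and 3 of *ioc3*Δ *yaf9*Δ, and 8, 0 and 0 without those of *ioc3*Δ*cHLB yaf9*Δ). That is 10.7% of the list, against 2.04% of all genes tested. The median of the list was 0.435, with 23 genes positive and 5 negative. *HSP12* and *HSP26*, which encode small heat shock proteins and are widely used reporters of this response, were not among the called genes. *HSP12* was at 54.6, 13.4 and 416 CPM in *ioc3*Δ *yaf9*Δ and at 108, 20.9 and 19.6 CPM in the truncation strain, against 1204 ± 200 CPM in *yaf9*Δ (-0.92 ± 1.70, adjusted p = 0.78). The libraries of each strain were so far apart that no difference could be shown.
GLK1 (chrIII:50641-50690, plus strand): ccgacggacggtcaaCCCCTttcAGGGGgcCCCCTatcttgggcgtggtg
PNC1 (chrVII:428156-428271, minus strand): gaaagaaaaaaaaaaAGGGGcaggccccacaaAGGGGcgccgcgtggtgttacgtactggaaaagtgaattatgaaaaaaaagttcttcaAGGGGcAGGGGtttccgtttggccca

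A few genes of methionine synthesis and of aromatic amino acid breakdown were higher. *MET6*, methionine synthase, was at 428, 484 and 496 CPM in the truncation strain and at 148, 172 and 265 CPM in *ioc3*Δ *yaf9*Δ, and both lay far below *yaf9*Δ at 1310 ± 139 CPM (1.30 ± 0.28, adjusted p = 0.0275). *ARO9*, an aromatic aminotransferase of the Ehrlich pathway, was at 59.9, 80.5 and 69.5 CPM against 23.8, 35.0 and 39.1 CPM, with *yaf9*Δ at 147 ± 9.89 CPM (1.1 ± 0.21, adjusted p = 0.0122). Neither overlapped between strains. *MET6* lost its call without library 1 of *ioc3*Δ *yaf9*Δ or library 2 or 3 of *ioc3*Δ*cHLB yaf9*Δ (adjusted p up to 0.166) and *ARO9* without library 1 of *ioc3*Δ *yaf9*Δ (0.89, adjusted p = 0.103). Of 32 sulfur and methionine genes 4 were higher (12.5%), and of 11 Ehrlich genes 2 (18.2%), against 2.04% of all genes tested. The first count was 0, 3 and 5 without libraries 1, 2 and 3 of *ioc3*Δ *yaf9*Δ and 8, 0 and 1 without those of *ioc3*Δ*cHLB yaf9*Δ, and the second fell to 0 without library 1 of *ioc3*Δ *yaf9*Δ and to 1 without library 2 of *ioc3*Δ*cHLB yaf9*Δ.

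Some genes were followed for the design itself. *ISW1*, the ATPase of the complex, differed by -0.01 (adjusted p = 0.98) and *HTZ1* by 0.18 (adjusted p = 0.386). *IMD2*, an inosine monophosphate dehydrogenase set by guanine nucleotide level, was at 388, 940 and 987 CPM in the truncation strain and at 428, 544 and 176 CPM in *ioc3*Δ *yaf9*Δ (1.04 ± 0.37, adjusted p = 0.106). It was called by DESeq2 (1.01, adjusted p = 0.0428), and by limma without library 1 of *ioc3*Δ*cHLB yaf9*Δ (1.48, 0.00984) or library 2 of *ioc3*Δ *yaf9*Δ (1.37, 0.0852), and was 0.56 without library 3 of *ioc3*Δ *yaf9*Δ (0.309). *MET16* differed by 0.12 (adjusted p = 0.642). Of the 3 genes on each side of *IOC3*, 0 were called by limma, 1 by edgeR and 2 by DESeq2. An unadjusted p under 0.05, found for 1347 of 5786 genes tested, was found for 2 of these neighbours. *GSY1*, glycogen synthase, was the widest, at 5.43, 79.2 and 109 CPM in the truncation strain against 13.5, 12.8 and 2.70 CPM in *ioc3*Δ *yaf9*Δ (2.09 ± 0.93, adjusted p = 0.187), and without library 1 of *ioc3*Δ*cHLB yaf9*Δ it was 3.38 (adjusted p = 0.0098). Near *YAF9*, *YNL108C*, which was chosen after its values were seen, was at 37.8, 49.3 and 54.3 CPM in the truncation strain against 12.9, 18.6 and 22.5 CPM in *ioc3*Δ *yaf9*Δ (1.36 ± 0.17, adjusted p = 0.000425).

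With *YAF9* present, the contrast of *ioc3*Δ*cHLB* with *ioc3*Δ, which shares no library with the contrast above, called 578 genes (9.99%), 140 higher (2.42%) and 438 lower (7.57%). Of the 160 genes lower without *YAF9*, 129 were lower with it (80.6%), which is 29.5% of the latter. Of the 118 genes higher without *YAF9*, 19 were higher with it (16.1%), which is 13.6% of the latter. *PDR5* differed by -3.22 with *YAF9* and the mitochondrial ribosome genes by a median of -1.1, with 66 of 67 lower.

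**Figure D4:**
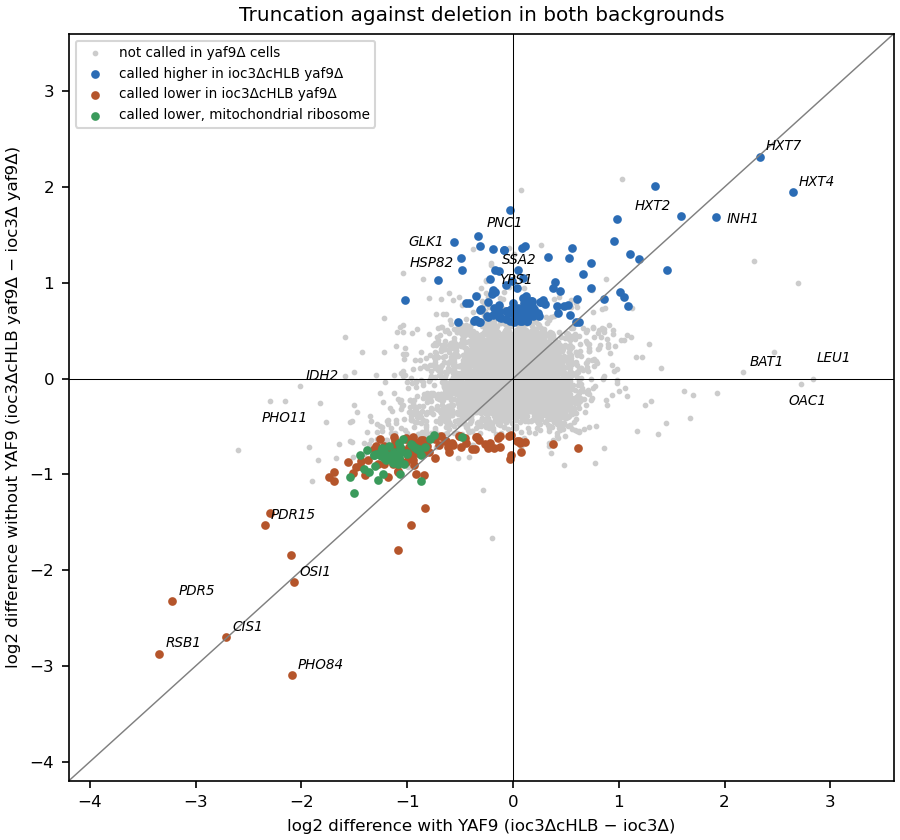
Each gene's truncation minus deletion difference on log2(CPM + 1), with *YAF9* on the x axis and without it on the y axis; *IOC3* is left out. Genes lower in both backgrounds, such as *PDR5* (-3.22 and -2.32), lie at the lower left, and *LEU1* (2.84 and -0.00) lies far along the x axis alone.

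The test of the difference between backgrounds called 495 genes (8.56%), 248 of them positive (4.29%) and 247 negative (4.27%). Of the 278 genes called without *YAF9*, 53 were among them, 45 of the higher and 8 of the lower. *SSA2* had a mean of 1589 CPM with *YAF9* and the truncation and 1816 CPM with *YAF9* and the deletion, against 2740 and 1109 without *YAF9* (difference of differences 1.53, adjusted p = 0.0352). *PDR5* kept its direction and was closer to 0 without *YAF9* by 0.90 ± 0.25 (adjusted p = 0.0524).

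Some branched-chain amino acid genes under Leu3 differed between backgrounds. *LEU1*, isopropylmalate isomerase, was higher in *ioc3*Δ*cHLB*, with 1107 ± 334 CPM, than in *ioc3*Δ, with 150.2 ± 15.7 CPM, and stood at 173.4 ± 0.913 CPM in the truncation strain and 174.6 ± 21.1 CPM in *ioc3*Δ *yaf9*Δ (all SD, n = 3; difference of differences -2.84 ± 0.30, adjusted p = 0.000211). Of 16 such genes 11 were higher with *YAF9*, against 2.42% of all genes tested. Without *YAF9* 0 were called by limma, edgeR or DESeq2. An unadjusted p under 0.05 was found for 3, against 1347 of 5786 genes tested. Between backgrounds 7 differed negatively, against 4.27% of all genes tested. Without library 1 of *ioc3*Δ*cHLB yaf9*Δ, 1 was higher without *YAF9*. *IDH2*, a subunit of isocitrate dehydrogenase, was lower with *YAF9* (-2.02) and close to level without it (-0.08), a difference of 1.93 (adjusted p = 0.0191).

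For ribosome biogenesis, the median difference was 0.45 with *YAF9* and -0.29 without it. Of 73 such genes, 63 differed negatively between backgrounds, against 4.27% of all genes tested. That count was 1 when only the compared strains were fitted. It was 36, 54 and 28 without libraries 1, 2 and 3 of *ioc3*Δ, 34, 22 and 66 without those of *ioc3*Δ*cHLB*, 23, 46 and 59 without those of *ioc3*Δ *yaf9*Δ, and 66, 22 and 22 without those of *ioc3*Δ*cHLB yaf9*Δ, while the median difference of differences lay between -0.91 and -0.65. Their median level was 8.27, 8.22 and 8.21 in *ioc3*Δ *yaf9*Δ and 8.33, 7.81 and 7.77 in *ioc3*Δ*cHLB yaf9*Δ, so library 1 of the truncation strain lay above all deletion libraries and libraries 2 and 3 below. Without *YAF9*, 0 were called by limma, edgeR or DESeq2, and 11 were lower without library 1 of *ioc3*Δ*cHLB yaf9*Δ. At an unadjusted p under 0.05, 30 were lower, and 1347 of all 5786 genes tested had such a p in either direction. Glycolysis genes went the other way, with 10 of 21 differing positively (against 4.29% of all genes tested) and medians of -0.54 and 0.25. Of 33 proteasome genes 7 did so, with medians of -0.23 and 0.25. With only the compared strains fitted both counts were 0. The glycolysis count was 4, 13 and 0 without libraries 1, 2 and 3 of *ioc3*Δ, 2, 2 and 11 without those of *ioc3*Δ*cHLB*, 0, 5 and 11 without those of *ioc3*Δ *yaf9*Δ, and 11, 0 and 0 without those of *ioc3*Δ*cHLB yaf9*Δ. The proteasome count was 12, 8 and 1, then 5, 2 and 8, then 0, 15 and 5, and then 8, 1 and 2 in the same order. Without *YAF9*, 0 proteasome genes were called by the same 3 tools, and 17 had an unadjusted p under 0.05, all toward higher RNA. Over all 5786 genes tested, 707 had such a p toward higher RNA.

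**Figure D5:**
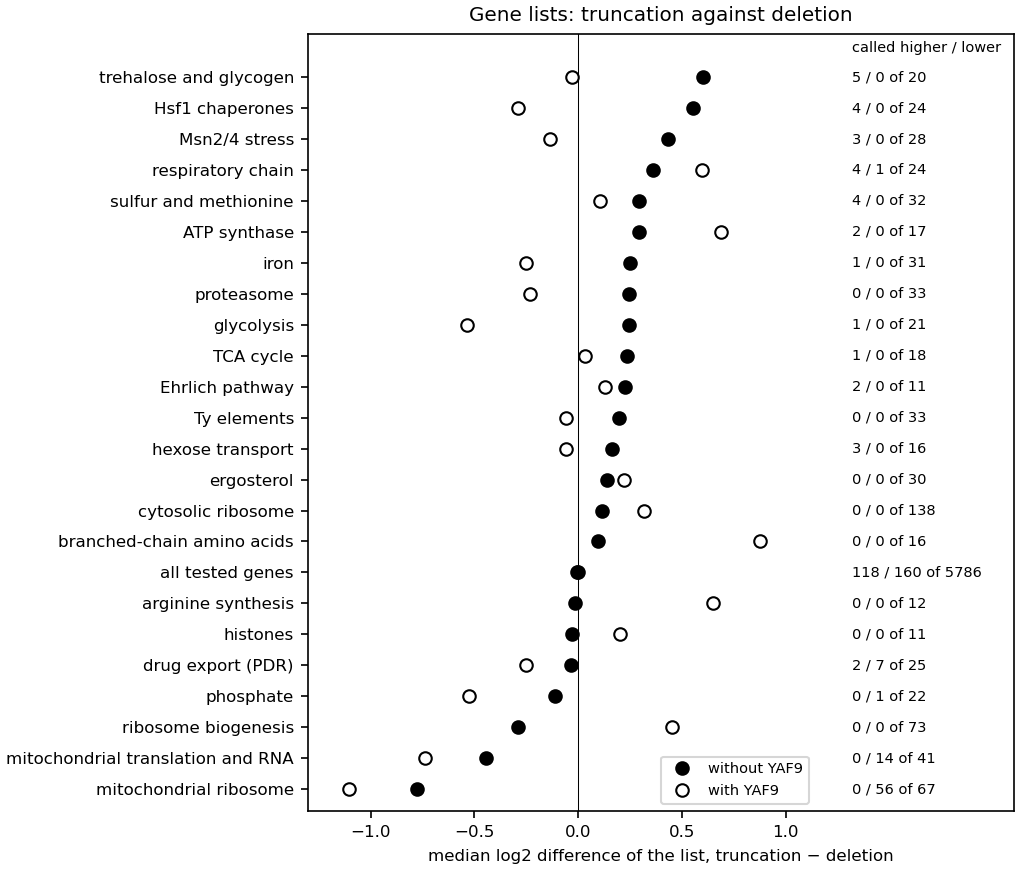
Median truncation minus deletion difference on log2(CPM + 1) of 24 gene lists, filled without *YAF9* and open with it, beside the numbers called higher and lower. The mitochondrial ribosome lay lowest in both backgrounds (-0.78 and -1.1).

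Other lists held few calls, or a share of calls near that of all genes tested. Cytosolic ribosome genes had a median of 0.12 with 0 of 138 called, histone genes -0.03 with 0 of 11, Ty elements 0.20 with 0 of 33 and meiosis genes -0.07 with 0 of 50. An unadjusted p under 0.05 was found for 4, 0, 6 and 4 of them, against 1347 of 5786 genes tested. The edgeR test called 0 in each list, and DESeq2 called 1 Ty element and 1 meiosis gene. Without library 3 of *ioc3*Δ *yaf9*Δ, 4 Ty elements and 3 meiosis genes were higher, and without library 1 of *ioc3*Δ*cHLB yaf9*Δ, 1 cytosolic ribosome and 1 meiosis gene; without library 3 of *ioc3*Δ*cHLB yaf9*Δ, 1 meiosis gene was. Of 280 genes near a chromosome end 10 were higher and 6 lower (5.71% called, against 4.8% of all genes tested). The higher count was 0, 8 and 21 without libraries 1, 2 and 3 of *ioc3*Δ *yaf9*Δ and 29, 0 and 2 without those of *ioc3*Δ*cHLB yaf9*Δ, and the lower count 1, 6 and 5, and 10, 2 and 3. Of 24 NuA4, SWR1 and H2A.Z genes only *SWC3*, a SWR1 subunit, was called (-0.62 ± 0.13, adjusted p = 0.0239), and it lost its call without library 1 of *ioc3*Δ *yaf9*Δ or library 2 of *ioc3*Δ*cHLB yaf9*Δ (adjusted p up to 0.159).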

How the data were processed

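Poly(A) RNA of 18 cultures was sequenced as strand-specific paired ends. Per the labels and methods the authors aligned reads with TopHat2 2.0.10 and Bowtie2 2.0 to sacCer3, counted with HTSeq, and deposited edgeR 3.6.2 CPM, a signal per gene scaled to the effective library size. The table held 5830 genes; 4 emptied lines were not analysed here. Values were whole multiples of 1 read within 0.01 reads for 100% of genes, which gave depth; 0 reads allow 0.368 to 0.603 CPM in these 6 libraries (3 reads, counting error only). Systematic names of 5634 genes matched the R64 annotation.

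Genes that reached 1 CPM in 3 or more of the 18 libraries were fitted on log2(CPM + 1) in limma 3.58.1 (R 4.3.3) with a mean-variance trend and 1 mean per strain. The count tests on recovered reads called 309 genes with edgeR 4.0.16 and 352 with DESeq2 1.42.0. Adjustment was by Benjamini-Hochberg over 5786 genes. Alternatives varied scaling, filter, pseudocount, threshold, fit, replicate block, weights and left-out libraries.

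Named genes were those of the design, the 3 on each side of *IOC3*, the 15 largest non-overlapping changes each way at a mean of at least 5 CPM, the 2 to 4 largest of each list, and the 5 largest each way between backgrounds; genes also named because they were called in every left-out fit, or lie beside such a gene, were chosen after their values were seen. Gene lists and the genes in them were chosen with earlier results of these data known.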

Additional observations from a re-analysis of the deposited data

Results flagged for a closer look

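The test of whether the truncation minus deletion difference changed with *YAF9* called 495 genes by limma, and named genes with such a difference are given as log2 values (without *YAF9* minus with it). Positive values were 2.14 for *HSP82* (near-identical to *HSC82*, so uncertain), 2.06 for *PHO11* (near-identical to *PHO12*, likewise), 2.02 for *SIT1*, a siderophore transporter, 1.98 for *GLK1*, 1.93 for *IDH2*, 1.82 for *PNC1*, 1.53 for *SSA2*, 1.43 for *AIM17*, 0.90 for *PDR5* and 0.62 for *PDR3*. Negative values were -2.84 for *LEU1*, -2.78 for *OAC1*, the mitochondrial oxaloacetate and isopropylmalate carrier, -2.11 for *BAT1*, a branched-chain aminotransferase, -2.08 for *ARG3*, ornithine carbamoyltransferase, and -1.75 for *ALD5*, a mitochondrial aldehyde dehydrogenase. The adjusted p for *AIM17* was 0.0995 and that for *LEU1* 0.000211. The number of such calls ran from 122 to 882 with 1 library left out.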

How the results depend on the processing

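None of the 278 called genes, nor of the 495 between backgrounds, changed sign under the alternatives run. The alternatives reuse the same libraries. At the 256 of the 278 genes without overlap, leaving out libraries could not reverse the sign, so this is no separate support. The 278 calls (118 higher, 160 lower) became 802 with array weights (463 and 339), 163 with only the compared strains in the fit (43 and 120), 126 at an adjusted p under 0.05 (62 and 64) and 660 (383 and 277) without library 1 of *ioc3*Δ*cHLB yaf9*Δ and library 3 of *ioc3*Δ *yaf9*Δ together, an alternative chosen after seeing the data; leaving out 1 library gave 31 to 647 (14 to 328 higher, 17 to 319 lower). The 495 calls between backgrounds became 1299, 26, 208 and 1064 under the same settings, and 122 to 882 with 1 library left out. Same-numbered libraries had deviations that correlated at -0.08, 0.40 and -0.33, so the numbers did not pair them; with a replicate block the counts were 295 and 484, and with the block and only the compared strains, added after seeing the data, 220 and 254. In 600 bases before the start, also added later, the element shares were 39.9%, 64.7% and 29.7% for AGGGG and 3.53%, 5.17% and 9.49% for TCCGNGGA in all, higher and lower genes. The causes were not tested. Of 56 named genes 30 were called. The counts of calls are limited by 3 libraries a strain; whether more depth would move them was not tested, and the median interval was 0.31 either side on log2.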

Other observations

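The genes given here were chosen after their values were seen and stand for no group. *HAC1*, the activator of the unfolded protein response, was at 485, 533 and 465 CPM in libraries of *ioc3*Δ*cHLB yaf9*Δ, against 268, 288 and 321 CPM in *ioc3*Δ *yaf9*Δ (0.76 ± 0.13, limma adjusted p = 0.0055), with *yaf9*Δ between them at 394 ± 7.72 CPM. *LHS1*, an Hsp70 of that compartment, was at 109, 144 and 137 CPM against 72.4, 77.1 and 84.0 CPM (0.72 ± 0.11, adjusted p = 0.00235). *KAR2*, its main Hsp70, was at 835, 1404 and 1334 CPM against 455, 606 and 632 CPM (1.05 ± 0.22, adjusted p = 0.023). None of the 3 overlapped between strains, and *HAC1* and *LHS1* kept their calls with any 1 library left out. *PDI1*, protein disulfide isomerase, differed by 0.73 ± 0.19 (adjusted p = 0.0535). *KAR2* and *PDI1* lost their calls without library 1 of *ioc3*Δ *yaf9*Δ or library 2 or 3 of *ioc3*Δ*cHLB yaf9*Δ, *PDI1* also without library 2 of *ioc3*Δ *yaf9*Δ (adjusted p up to 0.159 and 0.211).

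*YPS1*, an aspartyl protease of the cell surface, was at 150, 122 and 108 CPM against 67.7, 64.3 and 65.4 CPM (0.92 ± 0.15, adjusted p = 0.00351), and *DOG2*, a 2-deoxyglucose-6-phosphate phosphatase, at 40.8, 61.4 and 56.4 CPM against 20.2, 24.2 and 35.7 CPM (0.98 ± 0.18, adjusted p = 0.0118). *LAF1* was lower, at 90.9, 93.3 and 98.0 CPM against 253, 170 and 151 CPM (-0.98 ± 0.13, adjusted p = 0.000747).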
